A study of Mus musculus with 24 samples.

Results

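Granulosa cells of mouse follicles cultured with blebbistatin were compared with granulosa cells of follicles cultured with dextran, over all genes, in 8 of the 24 RNA sequencing libraries of the study. Members were taken by their library labels, 4 with blebbistatin and 4 with dextran, and no measured value entered the choice. The other libraries are 4 of granulosa cells in control medium, which share the estimate of the spread here, and 12 of oocytes.

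The blebbistatin group came from wild-type follicles embedded in alginate gel and grown until day 3 with the drug at 20 µM. The dextran group came from follicles of the same genotype cultured to day 3 in medium with dextran that set a pressure of 10 kPa, and the control group from such follicles with neither agent. All 3 groups received FSH at 50 mIU/ml, serum and an insulin, transferrin and selenium supplement. Only follicles larger than 180 µm were used, and they were separated mechanically into oocytes and granulosa cells, with many granulosa cells pooled in a library. Replicates are named biological, but no label ties them to separate animals or cultures. The p-values here set each difference between groups only against the spread of these libraries within groups, and that spread may be technical. The labels do not say whether the dextran or control medium held the solvent of blebbistatin.

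Granulosa cells surround the oocyte, respond to FSH, make estrogen and inhibin, and sit on a basement membrane that separates them from the theca and stroma. Blebbistatin blocks the ATPase of myosin II, the motor that pulls on actin filaments, and so removes contractile force. Dextran too large to enter the tissue draws water out of the follicle and compresses it. Actin tension and polymerisation act on transcription through SRF and its cofactor MRTF, which switch on actin, tropomyosin and smooth muscle genes through a DNA element called the CArG box, and through YAP and TAZ, which act with TEAD factors.

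The libraries held 16835935 to 19145403 counts with blebbistatin, 18789168 to 21100824 with dextran and 16432256 to 22430951 in control. The defining markers of the labelled cell type were present in all 8 libraries. The inhibin subunit gene Inha had 10249, 13087, 11142 and 12564 CPM (counts scaled to library size) in blebbistatin replicates 1 to 4, against 17318, 14121, 13171 and 14787 CPM in dextran replicates 1 to 4. Foxl2, a transcription factor of granulosa cells, had 16.4 to 22.8 CPM with blebbistatin and 17.3 to 27.6 CPM with dextran. The FSH receptor gene Fshr had 8.02 to 52.4 CPM with blebbistatin and 19.1 to 71.0 CPM with dextran. Amh, the anti-Müllerian hormone gene, had 29.8 to 142 CPM with blebbistatin and 43.0 to 380 CPM with dextran. Summed over 20 granulosa markers the level was 24004 to 28779 CPM with blebbistatin and 29325 to 38114 CPM with dextran, without overlap. Oocyte markers summed to 3.12 to 38.0 CPM with blebbistatin and 7.50 to 15.0 CPM with dextran.

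In 4 measures of make-up some or all blebbistatin libraries lay outside the range of dextran, and which ones did so differed by measure. Immune markers summed to 765 and 1119 CPM in blebbistatin replicates 1 and 2, to 2.63 and 5.23 CPM in replicates 3 and 4, and to 2.18 to 2.79 CPM with dextran, while controls had 1.77 to 14.1 CPM. The macrophage gene Lyz2 had 373 and 648 CPM in blebbistatin replicates 1 and 2 and was at 0 in replicates 3 and 4, and had at most 0.493 CPM with dextran. Theca, stromal and smooth muscle markers summed to 1748, 472, 1186 and 510 CPM in blebbistatin replicates 1 to 4, against 238, 432, 45.8 and 53.9 CPM in dextran replicates 1 to 4 and 48.0 to 446 CPM in control. Mitochondrially encoded genes took 7.55, 3.86, 9.53 and 6.09% of counts with blebbistatin and 3.41 to 4.82% with dextran. Genes with at least 1 count numbered 14538 in blebbistatin replicate 1, 18605 to 21042 in the other 3 and 21576 to 22485 with dextran. In bulk RNA, more cells of a type and more RNA per cell cannot be told apart.

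**Figure D1:**
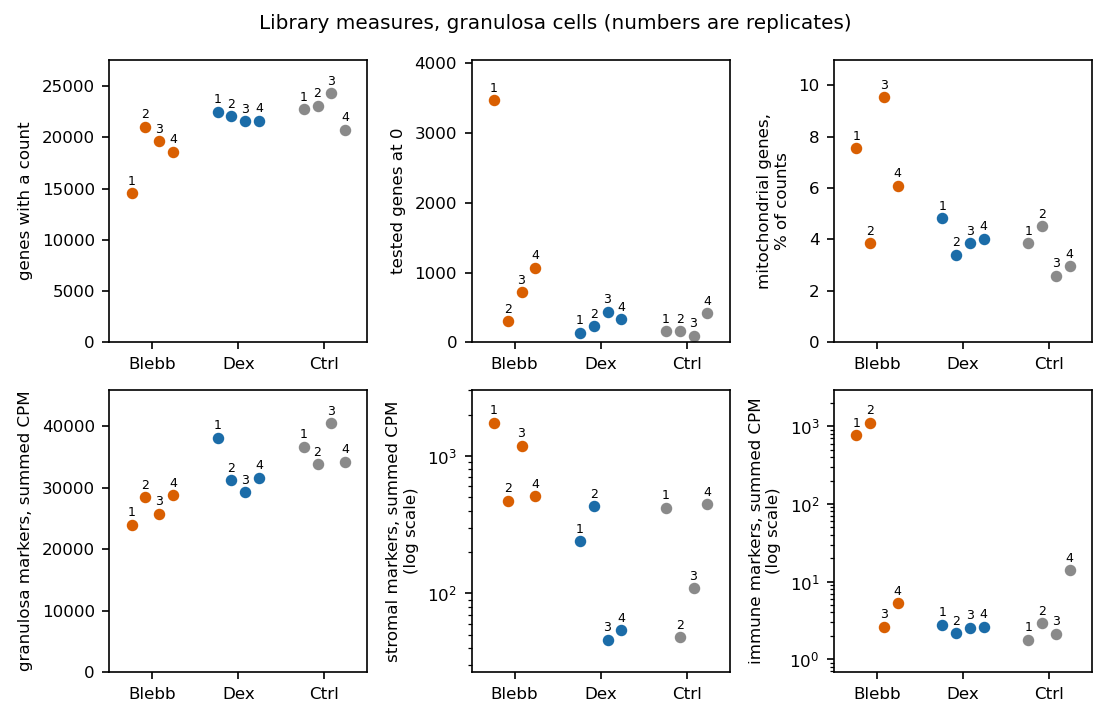
Library measures of the granulosa cell libraries, with blebbistatin (Blebb), dextran (Dex) and control (Ctrl) from left to right and each point labelled with its replicate number. The panels give genes with a count, tested genes at 0, percent of counts from mitochondrial genes and the summed CPM of 3 marker lists (the stromal and immune panels have log axes). Immune markers reached 765 and 1119 CPM in blebbistatin replicates 1 and 2 and stayed at or below 5.23 CPM in the other blebbistatin and all dextran libraries.

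No single gene passed the test of blebbistatin against dextran. Of 15370 genes tested, 0 were higher and 0 lower at an adjusted p under 0.05 (edgeR quasi-likelihood test with Benjamini-Hochberg adjustment), and the smallest adjusted p was 0.231. At an unadjusted p under 0.05 there were 608 genes higher with blebbistatin (3.96% of those tested) and 750 lower (4.88%), and these shares are the background for the list counts below that use all libraries. All 4 blebbistatin libraries lay above all 4 dextran libraries for 283 genes (1.84%) and below them for 581 (3.78%). The median log2 difference, blebbistatin minus dextran, was −0.05, and 44.7% of genes had a positive one. DESeq2 on the same counts called 104 genes higher and 110 lower, among them all 24 genes ranked first below. On simulated libraries without any change DESeq2 made 19 false calls and edgeR 0, and edgeR found 40% of simulated 2-fold and 76% of 4-fold changes. Each library was drawn once from the same mean and spread per gene, and the 200 changed genes had at least 5 CPM. The simulation did not copy the genes at 0 in blebbistatin replicate 1 or the immune RNA. Its rates may therefore not hold for the real libraries. Because of the immune and stromal RNA, list counts are also given without blebbistatin replicate 1 and, as a choice made after seeing the data, without replicates 1 and 2. The background of such counts was 4.38% higher and 6.07% lower without replicate 1, and 5.11% higher and 8.94% lower without replicates 1 and 2. Without blebbistatin replicate 1 the same test called 1 gene higher, Ptprq, and 2 lower, Klf6 and Rhob. Without replicates 1 and 2 it called 4 higher and 8 lower, and the lower ones included Klf6, Rhoa and Uchl1.

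**Figure D2:**
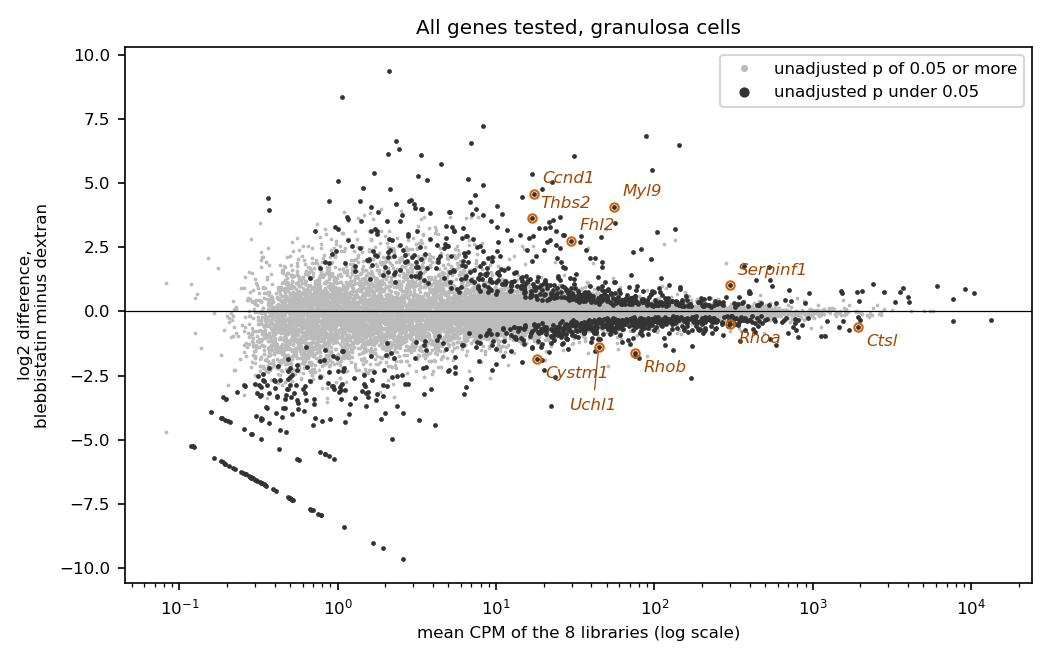
Log2 difference, blebbistatin minus dextran, against mean CPM of the 8 libraries (log axis) for the 15370 genes tested in granulosa cells. Dark points have an unadjusted p under 0.05 (608 higher, 750 lower), named genes are circled, and the diagonal at lower left holds genes at or near 0 in the blebbistatin libraries, whose fitted differences are no bounds.

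The genes with the smallest p on the higher side included ones for proteins of actin filaments, the matrix and the cell cycle. Fhl2, a LIM-domain cofactor that SRF induces, had 66.2, 24.8, 74.9 and 40.6 CPM in blebbistatin replicates 1 to 4, against 5.58, 10.7, 6.21 and 8.22 CPM in dextran replicates 1 to 4. Controls had 12.8, 2.89, 10.2 and 15.8 CPM. Every blebbistatin library lay above every dextran and control library, with a log2 difference from dextran of 2.75 ± 0.49 (SE, as for every log2 difference here; edgeR adjusted p = 0.240). Myl9, a regulatory light chain of myosin II in smooth muscle and other cells, had 136, 75.3, 126 and 82.4 CPM with blebbistatin, against 16.7, 5.75, 0.800 and 1.56 CPM with dextran and 47.2, 4.52, 14.7 and 16.4 CPM in control. The groups did not overlap (log2 difference 4.08 ± 0.90, edgeR adjusted p = 0.257). Cnn2, the actin-binding protein calponin 2, had 90.6, 28.3, 42.7 and 26.4 CPM with blebbistatin and 7.72, 6.89, 3.15 and 6.28 CPM with dextran, again without overlap (2.97 ± 0.65, edgeR adjusted p = 0.257).

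Further genes of this rank had the same order. Ccnd1, the G1 cyclin D1, had 73.4, 30.4, 25.9 and 3.12 CPM with blebbistatin, against 1.20, 1.83, 0.894 and 1.61 CPM with dextran. Its lowest blebbistatin value, in replicate 4, was still above the highest of dextran, but 1 control library reached 12.8 CPM. Cryab, a small heat shock protein of muscle and lens, averaged 41.2 ± 16.8 CPM with blebbistatin and 6.77 ± 3.15 CPM with dextran (SD, n = 4 each). Thbs2, an anti-angiogenic thrombospondin, had 25.6, 7.24, 49.6 and 42.9 CPM with blebbistatin and 2.63, 4.96, 0.894 and 1.56 CPM with dextran. Smaller but even differences were seen for Rbsn, an endosomal Rab effector (log2 difference 0.53 ± 0.10), Copz2, a coatomer subunit (1.16 ± 0.26), and Serpinf1, a secreted serpin (1.01 ± 0.22). The transcription cofactor Lbh (2.39 ± 0.46), the procollagen processing enhancer Pcolce (1.40 ± 0.27) and the collagen IV chain Col4a4 (2.95 ± 0.59) complete the 12. Their edgeR adjusted p ran from 0.240 to 0.257, and in none of the 12 did the 4 blebbistatin libraries overlap the 4 of dextran. Because the genes were ranked by p in this same contrast, that separation is no further support.

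On the lower side the first gene was Uchl1, a ubiquitin hydrolase abundant in neurons and oocytes. It had 16.5, 32.0, 23.7 and 25.4 CPM with blebbistatin, against 58.4, 51.9, 64.0 and 84.0 CPM with dextran and 59.4, 55.9, 54.9 and 47.5 CPM in control. Blebbistatin was below both other groups, which overlapped each other (log2 difference −1.40 ± 0.21, edgeR adjusted p = 0.231). Oocyte libraries held 746 to 1230 CPM of Uchl1 (per total count, unscaled). Oocyte markers summed to 38.0 CPM in blebbistatin replicate 1, the library with the lowest Uchl1, to 3.12 to 6.27 CPM in the other blebbistatin libraries, to 7.50 to 15.0 CPM with dextran and to 26530 to 37830 CPM in oocytes. The part of oocyte RNA in the difference of Uchl1 was not tested.

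Small GTPase genes followed, with early response and lysosomal genes. Rhoa, the GTPase that activates myosin II through its kinase ROCK, had 255, 282, 239 and 224 CPM with blebbistatin, against 347, 349, 340 and 366 CPM with dextran. Control libraries, at 258 to 282 CPM, lay with blebbistatin, and the log2 difference from dextran was −0.49 ± 0.08 (edgeR adjusted p = 0.231). Rhob, a short-lived relative of Rhoa, had 59.3, 24.3, 28.1 and 35.9 CPM with blebbistatin and 70.4, 118, 160 and 107 CPM with dextran, while controls had 25.1 to 41.7 CPM. Here too control lay with blebbistatin and dextran above both (−1.63 ± 0.31). Klf6, an early zinc finger factor, had 64.7, 32.3, 21.1 and 19.9 CPM with blebbistatin and 109, 114, 122 and 121 CPM with dextran (−1.75 ± 0.38). Ctsl, the lysosomal protease cathepsin L, had 1469 to 1582 CPM with blebbistatin, against 2117 to 2689 CPM with dextran (−0.61 ± 0.13), with 3 control libraries at 1481.5 to 1577.5 CPM and 1 at 2305 CPM.

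Others were lower than control as well as dextran. Prdx4, a peroxiredoxin of the endoplasmic reticulum, had 182, 204, 166 and 191 CPM with blebbistatin, against 264, 257, 319 and 252 CPM with dextran and 269 to 307 CPM in control (log2 difference from dextran −0.56 ± 0.10). Cystm1 had 3.96, 8.70, 3.86 and 14.8 CPM with blebbistatin, against 33.3, 34.6, 19.4 and 26.4 CPM with dextran and 28.0 to 43.8 CPM in control. The log2 differences were −0.84 ± 0.16 for Retsat, a retinol saturase, −0.43 ± 0.09 for Dcaf12, a ubiquitin ligase adaptor, −0.42 ± 0.09 for Paip2, a repressor of translation, and −0.41 ± 0.09 for Mrpl33, a mitochondrial ribosomal protein. In none of the 11 lower genes given here did the blebbistatin libraries overlap those of dextran, and their edgeR adjusted p ran from 0.231 to 0.257. As on the higher side, the ranking by p favours such separation, which is no further support.

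**Figure D3:**
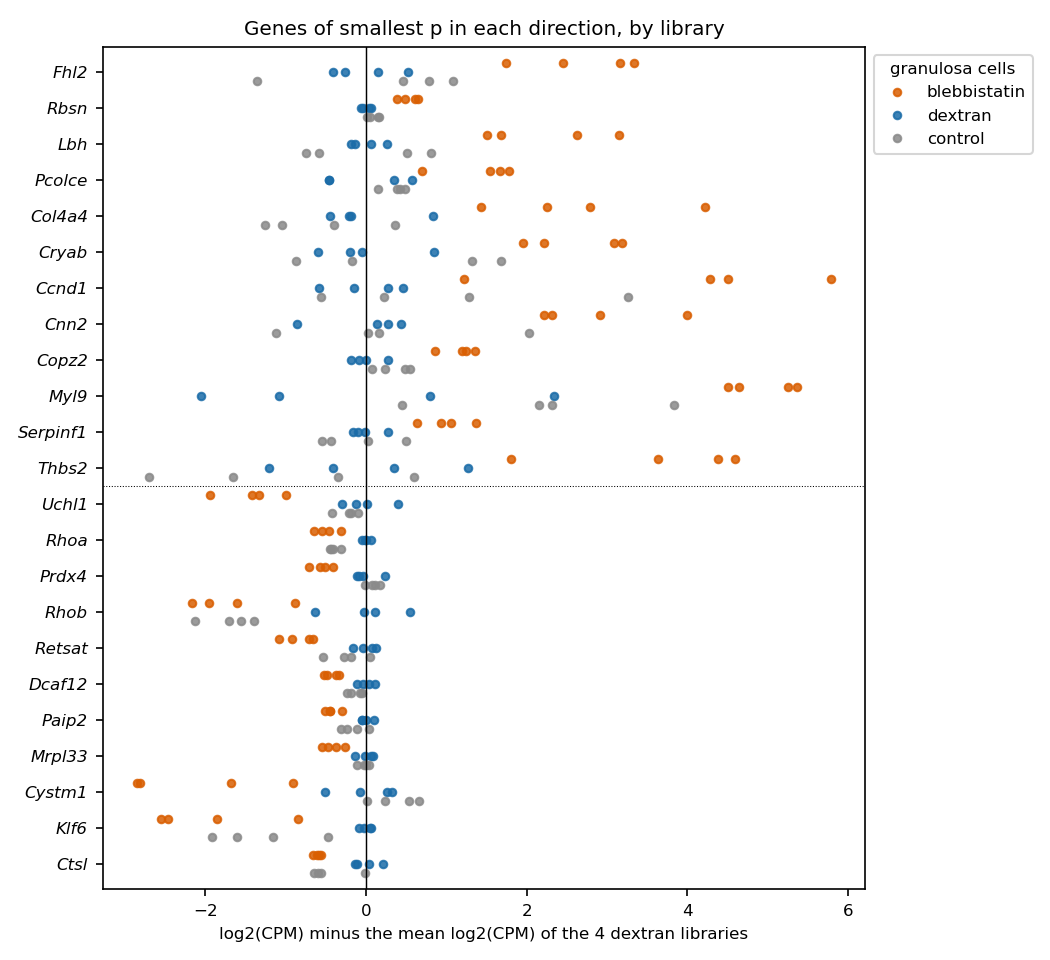
Genes of smallest p, 12 higher with blebbistatin (top) and 11 lower (bottom), with each library's log2 CPM given relative to the mean of the 4 dextran libraries. Blebbistatin points (orange) lie apart from dextran points (blue) in every row, while control points (grey) lie near dextran for Prdx4 and Cystm1 and near blebbistatin for Rhoa and Rhob.

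The control mean was set beside the differences between blebbistatin and dextran. Of the 608 genes higher with blebbistatin at an unadjusted p under 0.05, the control mean lay between the groups and nearer dextran for 314, between and nearer blebbistatin for 90, beyond dextran for 193 and beyond blebbistatin for 11. For the 750 lower genes these numbers were 339, 148, 222 and 41. Such positions were not counted over all genes tested, so no background stands beside them. Of the 1358 genes of either direction, 513 differed from control for neither treatment at an unadjusted p under 0.05. Another 708 did so for blebbistatin alone, 116 for dextran alone and 21 for both. Against the same controls 1602 genes differed for blebbistatin (10.4% of those tested) and 523 for dextran (3.40%) at that unadjusted threshold. By the adjusted p, 1 gene passed for blebbistatin (0.00651%), the ferritin gene Ftl1 (log2 difference 1.03 ± 0.12, edgeR adjusted p = 0.0214), and 0 for dextran. The comparisons with control share their control libraries, so their values are set side by side here without a measure of likeness.

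Contractile and actin genes had more members higher than lower. Of 32 SRF and actin genes 31 passed the filter on low counts, and 10 were higher and 3 lower with blebbistatin than dextran at an unadjusted p under 0.05, while 8 lay wholly above and 3 wholly below. The median log2 difference of the list was 0.31. Against control the median was 0.59 for blebbistatin and 0.20 for dextran. The list gave 10 and 2 members without blebbistatin replicate 1 and 10 and 3 without replicates 1 and 2.

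The actin genes of this list split by kind. Acta2, smooth muscle alpha actin, had 475, 102, 275 and 126 CPM with blebbistatin, against 40.4, 29.3, 21.8 and 15.4 CPM with dextran (log2 difference 3.19 ± 0.75). Tagln, the actin cross-linker transgelin of smooth muscle, had 73.8, 22.1, 68.4 and 23.4 CPM with blebbistatin and 7.23, 1.09, 1.65 and 4.67 CPM with dextran (3.68 ± 0.85). The cytoplasmic actins did not follow: Actb, the beta chain, had 1769 to 2145 CPM with blebbistatin and 1697 to 2260 CPM with dextran (−0.03 ± 0.11), and Actg1, the gamma chain, 657 to 831 and 652 to 864 CPM (−0.10 ± 0.13). Both overlapped fully between the groups. Srf itself was low, at 0 to 6.37 CPM with blebbistatin and 2.82 to 4.61 CPM with dextran. The log2 difference of Srf was 0.13 ± 0.94 with all libraries and 0.56 ± 0.37 without blebbistatin replicate 1.

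Tropomyosins, which wrap actin filaments, were higher with blebbistatin; both genes were picked after their values were seen. Tpm1 had 702, 443, 820 and 495 CPM with blebbistatin, against 146, 303, 328 and 264 CPM with dextran (log2 difference 1.24 ± 0.31). Tpm2 had 49.8, 38.1, 55.6 and 28.4 CPM with blebbistatin and 10.8, 6.10, 1.79 and 0.967 CPM with dextran (3.13 ± 0.77). Neither gene had a blebbistatin library within the range of dextran. The 3 lower members were Fhl1, a LIM-domain protein of muscle, at 0, 6.36, 2.36 and 4.15 CPM with blebbistatin and 25.6, 51.2, 50.3 and 38.6 CPM with dextran (−3.69 ± 1.07), the actin cross-linker Actn4 (−0.30 ± 0.12) and Vcl, the adhesion protein vinculin (−0.94 ± 0.39; named after its values were seen).

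Stromal markers were also higher with blebbistatin than dextran. Of 18 theca, stromal and smooth muscle markers 14 passed the filter, 6 were higher and 0 lower at an unadjusted p under 0.05, and the median log2 difference was 2.56 (5 and 0 members without blebbistatin replicate 1, and also without replicates 1 and 2). The list holds Acta2, Tagln and Myh11, which the lists of contractile genes hold too, and the part of stromal RNA in the difference of those lists was not tested. Summed over the 14 markers other than the 4 contractile ones, the level was 1168, 347, 828 and 348 CPM in blebbistatin replicates 1 to 4, against 190, 401, 21.98 and 33.6 CPM in dextran replicates 1 to 4. Blebbistatin replicates 1 and 3 were highest in that sum, as in Acta2, Tagln and Myl9. Dextran replicate 2 lay within the blebbistatin range of the sum, but below that of each of these genes.

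The CArG box was looked for in promoters of these genes, and stretches around it are shown because SRF binds that element. The search used the 250 bases before each start site in RefSeq's mouse table (build GRCm38.p6, matched by symbol), on both strands, for CC, 6 bases of A or T, and GG. The motif stood in 1.62% of the 27025 genes with a window and in 8 of the 28 tested SRF and actin genes that had one. That list was drawn up from textbook knowledge of SRF and actin genes. Its share therefore does not describe blebbistatin or dextran. Of 15355 named genes tested only 10378 had a window, so the share among all genes higher or lower with blebbistatin is void and not given. Capitals mark it in these stretches, which end before the start site:
Fhl2, chr1:43196818-43196887, minus strand: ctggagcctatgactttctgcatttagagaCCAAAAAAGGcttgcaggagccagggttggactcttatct
Fhl2, second start site, chr1:43163962-43164022, minus strand: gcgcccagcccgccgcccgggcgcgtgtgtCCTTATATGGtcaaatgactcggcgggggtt
Cnn2, chr10:79988514-79988583, plus strand: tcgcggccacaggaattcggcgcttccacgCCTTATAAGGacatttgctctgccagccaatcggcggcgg
Myl9, chr2:156775273-156775342, plus strand: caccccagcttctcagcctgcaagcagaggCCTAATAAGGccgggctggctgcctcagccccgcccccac
Fhl1, chrX:56779551-56779620, plus strand: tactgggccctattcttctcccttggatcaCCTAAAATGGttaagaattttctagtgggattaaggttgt
Vcl, chr14:20929148-20929210, plus strand: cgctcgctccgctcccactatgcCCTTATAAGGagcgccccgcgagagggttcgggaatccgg
Actg1, chr11:120348546-120348615, minus strand: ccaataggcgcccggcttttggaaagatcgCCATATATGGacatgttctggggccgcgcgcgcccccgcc
The first 3 genes were higher with blebbistatin than dextran, Fhl1 and Vcl lower, and Actg1 overlapped between the groups. The motif also stood upstream of Srf (log2 difference 0.13) and Lima1 (0.37), whose stretches are not shown. Neither was among the higher or lower members. Of the 10 higher members 8 had a window and 3 of these held the motif. Of the 3 lower members 3 had a window and 2 held it. The motif in Cnn2 and that in Vcl had the same letters. A match of letters is a description and does not show binding.

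**Figure D4:**
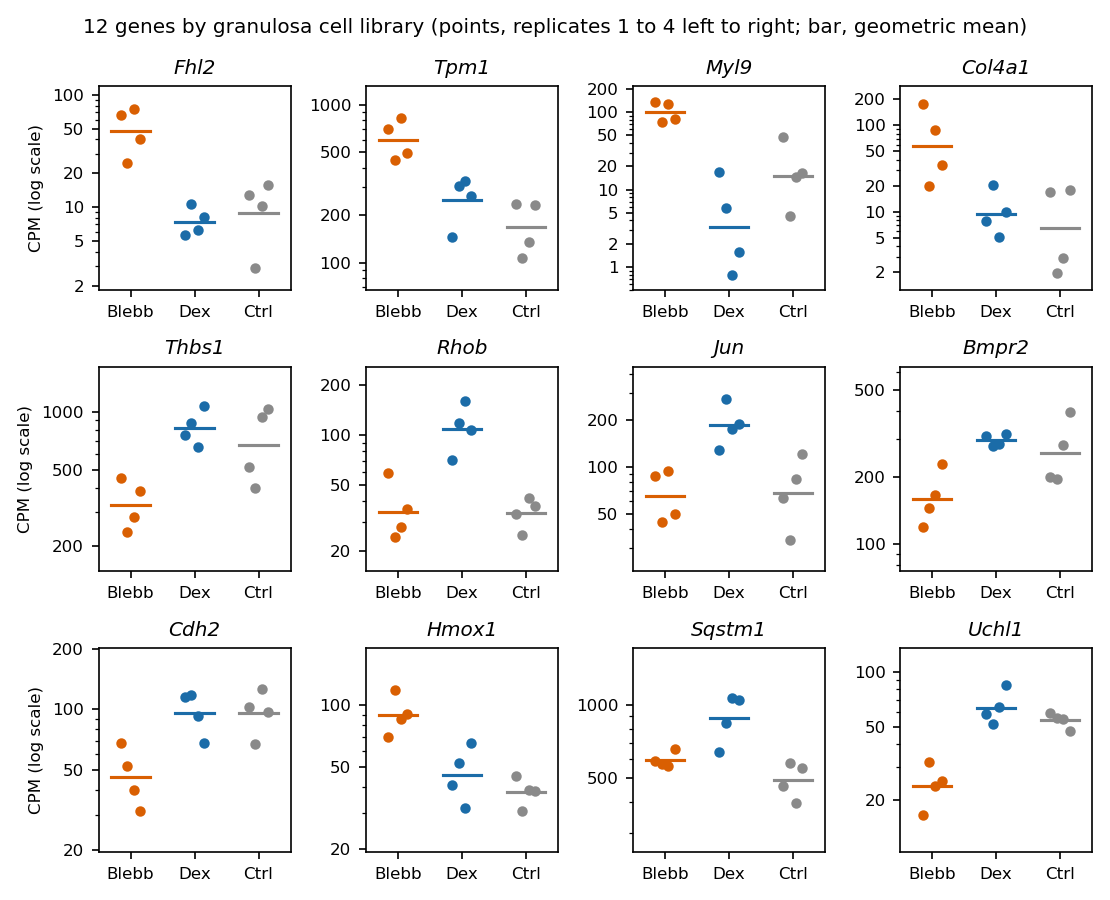
CPM of 12 genes in each granulosa cell library on log axes, with blebbistatin (Blebb), dextran (Dex) and control (Ctrl) from left to right, points for replicates 1 to 4 and a bar at the geometric mean. Fhl2, Tpm1, Myl9, Col4a1 and Hmox1 averaged higher with blebbistatin than dextran, the other genes lower, and control lay with blebbistatin for Rhob and Jun and with dextran for Cdh2 and Uchl1.

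The list of genes of myosin II, which blebbistatin blocks, and of its regulators showed no common direction. It leaves out the light chain gene Myl9, which is counted with the SRF and actin genes. Myl9 was higher with blebbistatin (log2 difference 4.08 ± 0.90). Of 17 tested members 2 were higher and 2 lower at an unadjusted p under 0.05 (2 and 2 without blebbistatin replicate 1; 3 and 3 without replicates 1 and 2). The lower ones were the GTPases Rhoa and Rhob above, which are regulators and not myosin chains. The heavy chain gene Myh9 had 10.0 to 16.6 CPM with blebbistatin and 13.7 to 16.2 CPM with dextran (log2 difference −0.14 ± 0.23), and Myh10 had 80.8 to 109 and 85.2 to 105 CPM (0.10 ± 0.13). Both overlapped wholly. The higher members were Mylk, the kinase of the light chain, at 247, 105, 179 and 96.9 CPM with blebbistatin and 22.5, 53.6, 145 and 36.2 CPM with dextran, and the smooth muscle heavy chain Myh11, which was at 0 in 3 dextran libraries. Myh11 was also at 0 in blebbistatin replicate 2.

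Focal adhesion genes and the YAP and TAZ targets had shares near the background. Among 26 focal adhesion genes 1 was higher, Parva, a linker of integrins to actin (log2 difference 0.85 ± 0.25), and 1 lower, Itga2, a collagen receptor subunit (−2.29 ± 0.87), with a list median of −0.03 (1 and 2 members without blebbistatin replicate 1; 2 and 3 without replicates 1 and 2). Of 19 tested YAP and TAZ targets 1 was higher and 0 lower, as also in both settings with fewer libraries, and the median was −0.06. Against control the median of the YAP and TAZ list was 0.58 for blebbistatin and 0.27 for dextran. Ccn1, a matricellular target, had 71.5, 10.4, 81.6 and 39.0 CPM with blebbistatin and 11.4, 36.6, 82.4 and 140 CPM with dextran (−0.42 ± 0.75), and Ccn2 0.934 to 12.2 and 1.10 to 5.69 CPM (0.50 ± 1.00). The spread within each group covered the difference for both, and the sign of each turned when a single library was left out. Gadd45b, which is induced by stress, had 34.0 to 82.6 CPM with blebbistatin and 33.3 to 157 CPM with dextran.

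Interstitial matrix genes had a positive log2 difference in 15 of 18 tested members. Of 20 interstitial matrix genes 18 passed the filter, 4 were higher and 1 lower at an unadjusted p under 0.05, and the median log2 difference was 1.61 (3 and 1 members without blebbistatin replicate 1; 5 and 1 without replicates 1 and 2). Bgn, the proteoglycan biglycan (named after its values were seen), had 382, 63.1, 213 and 91.5 CPM with blebbistatin and 42.5, 29.2, 2.45 and 12.7 CPM with dextran (3.11 ± 0.95), and the microfibril gene Fbn1 averaged 33.9 ± 32.5 and 6.45 ± 4.35 CPM (SD, n = 4 each). Bgn was highest in blebbistatin replicates 1 and 3, as were the summed stromal markers and the contractile genes Acta2, Tagln and Myl9. The part of stromal RNA in the difference of this list was not tested. The lower member was Thbs1, a thrombospondin that activates TGF-beta, at 452, 237, 284 and 386 CPM with blebbistatin, against 759, 873, 655.5 and 1065 CPM with dextran. The groups were apart (−1.30 ± 0.30), and control libraries ran from 400 to 1036.5 CPM, across both.

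Basement membrane genes went both ways. Of 20 tested members 5 were higher and 3 lower at an unadjusted p under 0.05, with a median of 0.03 (5 and 4 without blebbistatin replicate 1; 6 and 3 without replicates 1 and 2). The collagen IV chains, which form its network, were among the higher. Col4a1 had 179, 20.0, 89.0 and 34.8 CPM with blebbistatin and 7.83, 20.5, 5.13 and 9.83 CPM with dextran (log2 difference 2.90 ± 0.84), and Col4a2 105, 25.7, 81.3 and 35.9 CPM and 9.64, 21.6, 5.51 and 10.6 CPM (2.39 ± 0.67); both were named after their values were seen. Col4a4, of the 12 above, had 138, 20.0, 51.2 and 35.4 CPM with blebbistatin and 6.52, 6.39, 5.46 and 13.3 CPM with dextran. Blebbistatin replicates 1 and 3 led in all 3 chains, and only Col4a1 overlapped between the groups. The collagen-binding protein gene Sparc averaged 574 ± 364 CPM with blebbistatin and 167 ± 40.6 CPM with dextran (SD, n = 4 each). On the lower side were Lamb2, the laminin beta 2 chain (−0.80 ± 0.26), and Fbln1, a fibulin that binds laminin and fibronectin (−0.70 ± 0.26).

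The third lower basement membrane gene, Fbln2, belongs to a set of 24 genes (0.156% of those tested) that were at 0 in all 4 blebbistatin libraries and in no dextran library. There were 0 genes of the opposite kind. Fbln2 had 5.42, 1.04, 1.93 and 6.98 CPM with dextran, at least 87.8-fold above the floor of 3 counts over the blebbistatin group. Ocln, the tight junction protein occludin, had 11.99, 3.07, 3.29 and 2.36 CPM with dextran and 0.300 to 2.27 CPM in control, and was at least 119-fold lower with blebbistatin by the same floor. Sema3a, a guidance cue, had 0.967 to 6.73 CPM with dextran and was at least 76.9-fold lower. These 3 genes were named after their values were seen. Tested genes at 0 numbered 3476, 308, 724 and 1070 in blebbistatin replicates 1 to 4 and 138 to 440 with dextran, and the part of that difference in this set was not tested. The floor covers counting error only.

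Matrix remodelling genes had 2 of 19 tested members higher and 1 lower at an unadjusted p under 0.05. Without blebbistatin replicate 1 the counts were 2 and 3 of 21, and without replicates 1 and 2 they were 5 and 1 of 23. Lox, the collagen cross-linking oxidase, had 212 CPM in blebbistatin replicate 1 and 1.58 to 31.1 CPM in the other 3, against 13.7 to 17.7 CPM with dextran. Timp3, an inhibitor of metalloproteinases, had 236, 26.8, 208 and 17.3 CPM with blebbistatin and 34.4, 23.0, 5.88 and 35.8 CPM with dextran. Either gene therefore overlapped between the groups, with the high values in 1 or 2 blebbistatin libraries. The matrix protease gene Mmp11 had 207 to 372 CPM with blebbistatin and 197 to 571 CPM with dextran (log2 difference −0.54 ± 0.30).

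Immediate early genes, which respond within minutes to growth factors and stress, had more members lower than higher with blebbistatin. Of 24 tested members 1 was higher and 5 lower at an unadjusted p under 0.05, 0 lay wholly above and 5 wholly below, and the median log2 difference was −0.47. The list gave 0 higher and 10 lower members without blebbistatin replicate 1, and 0 and 8 without replicates 1 and 2. Its member Klf6 passed the edgeR test in both of those settings (adjusted p = 0.0466 and 0.0443). The median of the list against control was 0.04 for blebbistatin and 0.82 for dextran.

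Among the AP-1 subunits, Jun had 87.0, 44.2, 93.8 and 49.7 CPM with blebbistatin, against 129, 276, 176 and 188 CPM with dextran and 33.9 to 121 CPM in control (log2 difference from dextran −1.48 ± 0.38). Junb had 13.3, 7.18, 12.1 and 11 CPM with blebbistatin and 21.2, 38.3, 39.2 and 31.7 CPM with dextran (−1.58 ± 0.40). In both, all blebbistatin libraries were below all dextran ones. Fos had 177, 65.7, 66.7 and 78.3 CPM with blebbistatin and 149, 224, 427 and 194 CPM with dextran (−1.36 ± 0.45), overlapping through blebbistatin replicate 1 alone. These 3 genes were named after their values were seen. Ier2, a nuclear early response protein, had 104, 75.0, 61.1 and 59.5 CPM with blebbistatin and 122, 192, 144 and 158 CPM with dextran (−1.04 ± 0.25). The higher member was Atf3, a stress-induced repressor, at 25.7, 10.5, 2.73 and 5.59 CPM with blebbistatin and 0.753 to 3.76 CPM with dextran (2.31 ± 0.90).

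TGF-beta, BMP and activin genes had 0 higher and 6 lower members of 31 tested at an unadjusted p under 0.05, with a median log2 difference of −0.26. Without blebbistatin replicate 1 the numbers were 0 and 7, and without replicates 1 and 2 they were 2 and 3. Receptors had the smallest p. Bmpr2, the type II BMP receptor, had 120, 145, 166 and 229 CPM with blebbistatin, against 310, 278, 284 and 315 CPM with dextran and 197 to 397 CPM in control (−0.85 ± 0.23). Bmpr1b, a type I receptor, had 99.8, 108, 160 and 215 CPM with blebbistatin and 253, 195, 257 and 326 CPM with dextran (−0.82 ± 0.31). The groups were apart for Bmpr2 and overlapped for Bmpr1b. The ligand gene Bmp2 (named after its values were seen) had 11.1, 1.46, 10.1 and 4.63 CPM with blebbistatin and 15.8, 34.1, 46.6 and 65.6 CPM with dextran. Among the targets, Id1 had 43.8 to 106 CPM with blebbistatin and 54.3 to 96.7 CPM with dextran (−0.22 ± 0.25), and Id2 97.4 to 170 and 146 to 166 CPM (−0.29 ± 0.20). In control Id1 had 24.1 to 26.9 CPM and Id2 47.0 to 79.0 CPM, below every library of either treatment, so the targets overlapped between the treatments while both lay above control.

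Genes of granulosa cell function had more members lower than higher, by small amounts. Of 29 tested FSH response and steroidogenic genes 0 were higher and 6 lower at an unadjusted p under 0.05 (0 and 6 without blebbistatin replicate 1; 0 and 5 without replicates 1 and 2), and 24 of the 29 had a negative log2 difference (median −0.22). Foxo1, an FSH-regulated forkhead factor, had 192, 217, 242 and 233 CPM with blebbistatin and 263, 287, 273 and 291 CPM with dextran (−0.34 ± 0.09). Among 20 granulosa markers 0 were higher and 3 lower, with a median of −0.27 (0 and 2 without blebbistatin replicate 1; 1 and 2 without replicates 1 and 2). Inha was lower without overlap (−0.34 ± 0.10), and so was Gja1, the connexin of granulosa gap junctions, at 5511, 6956, 6768 and 7619 CPM with blebbistatin and 9322, 8704, 8341 and 8361 CPM with dextran (−0.37 ± 0.11).

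Other hormone genes were uneven within groups. Inhbb, which encodes an activin and inhibin subunit, had 108, 77.1, 86.7 and 125 CPM with blebbistatin and 248, 249, 59.4 and 162 CPM with dextran (log2 difference −0.86 ± 0.47), against 194 to 805 CPM in control. Amh had 380 CPM in dextran replicate 1 and 43.0 to 58.2 CPM in the other dextran libraries, and the sign of its difference (−0.78 ± 0.78) turned without that library. Cyp19a1, the aromatase gene that makes estrogen, was at 0 in 2 blebbistatin and 2 dextran libraries and at most 3.00 and 6.90 CPM in the others. Fshr (−0.75 ± 0.48) and Foxl2 (−0.21 ± 0.27) overlapped between the groups.

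Junction genes had 0 higher and 5 lower members of 19 tested, against the background of 4.88% lower, with a median log2 difference of −0.24. The list gave 6 lower members without blebbistatin replicate 1 (background 6.07% lower) and 7 without replicates 1 and 2 (background 8.94% lower), and 0 higher in either. Cdh2, the N-cadherin of granulosa cell contacts, had 68.1, 52.7, 40.0 and 31.3 CPM with blebbistatin, against 115, 118, 92.9 and 67.9 CPM with dextran and 67.5 to 126 CPM in control (−1.04 ± 0.26). Only blebbistatin replicate 1 reached the range of dextran. Jup, plakoglobin (named after its values were seen), had 7.75, 19.5, 19.9 and 25.5 CPM with blebbistatin and 28.1, 41.9, 48.7 and 32.9 CPM with dextran (−1.06 ± 0.38), with controls at 13.7 to 34.3 CPM.

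**Figure D5:**
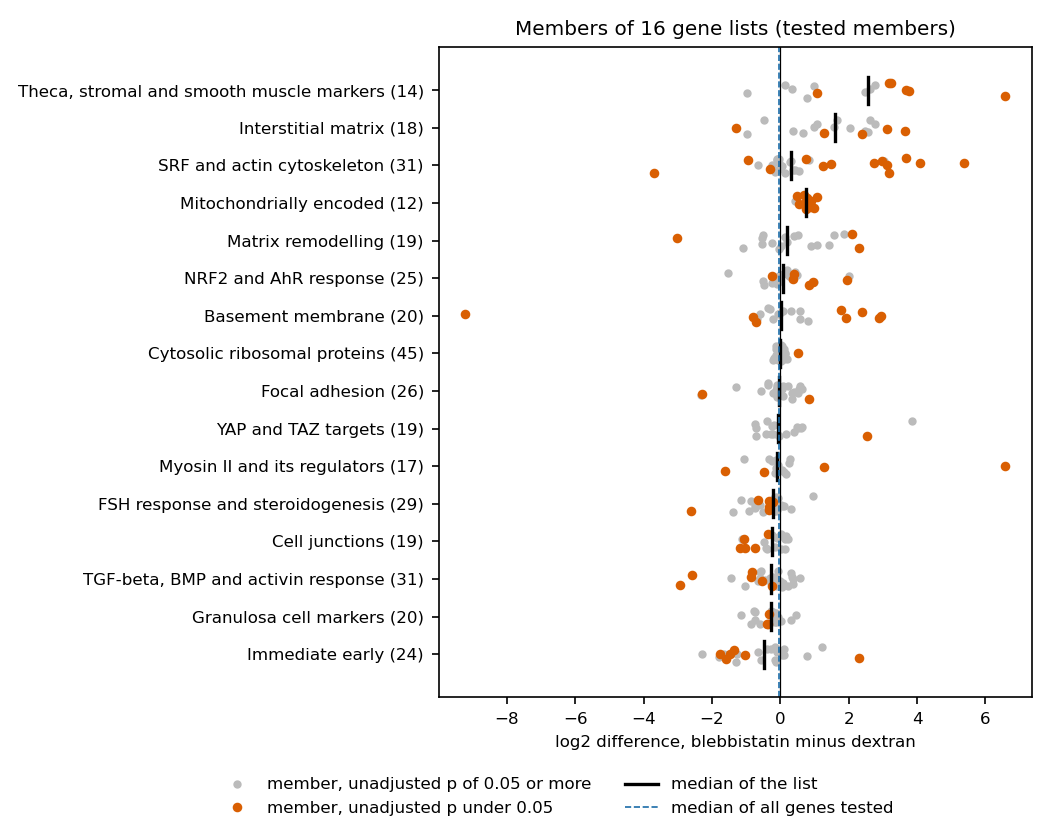
Log2 difference, blebbistatin minus dextran, of the tested members of 16 gene lists, with the number of tested members in brackets. Orange points have an unadjusted p under 0.05, black bars are list medians, and the dashed line is the median of all genes (−0.05). Medians ran from 2.56 for stromal markers to −0.47 for immediate early genes.

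Mitochondrially encoded genes were higher in 11 of 12 tested at an unadjusted p under 0.05, with a median log2 difference of 0.76, but 0 lay wholly above dextran. The count was 6 without blebbistatin replicate 1 and 12 without replicates 1 and 2. The complex I gene mt-Nd5 had 4101, 1499.5, 4726 and 2641 CPM with blebbistatin and 1823, 1310, 1557 and 1529 CPM with dextran (1.06 ± 0.32), and the overlap came from replicate 2 alone. Nuclear genes of the respiratory chain had a median of −0.06, with 0 of 38 higher and 1 lower (1 and 0 without blebbistatin replicate 1; 0 and 0 without replicates 1 and 2).

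Oxidant response genes had 5 higher and 1 lower of 25 tested, with a median of 0.07 (6 and 1 without blebbistatin replicate 1; 4 and 1 without replicates 1 and 2). Hmox1, haem oxygenase 1, had 70.3, 119, 86.2 and 91.0 CPM with blebbistatin, against 41.0, 52.2, 31.6 and 65.4 CPM with dextran and 30.7 to 45.4 CPM in control (log2 difference 0.95 ± 0.23). Ftl1, the ferritin light chain, had 3872, 4376, 3464 and 3324 CPM with blebbistatin and 2567, 2978, 2930.5 and 3116 CPM with dextran (0.38 ± 0.12). Controls of Ftl1 had 1533 to 2130 CPM, so it stood in the order blebbistatin, dextran, control with no overlap at either step. Nfe2l2, which encodes NRF2 itself, was the lower member (−0.25 ± 0.10).

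Of 28 lysosomal genes 4 were higher and 3 lower (3 and 3 without blebbistatin replicate 1). Ctsb, cathepsin B, had 1263 and 1576 CPM in blebbistatin replicates 1 and 2 but 191 and 200 CPM in replicates 3 and 4, against 139 to 340 CPM with dextran. Its log2 difference was 1.71 ± 0.60 with all libraries and −0.32 without those 2. The list then gave 0 higher and 7 lower members, beside a background of 8.94% lower. Sqstm1, the autophagy receptor p62, did not follow the immune RNA, with 565 to 659 CPM with blebbistatin and 645 to 1073 CPM with dextran (−0.60 ± 0.16). Cd68, a macrophage lysosomal protein, was at 120 CPM in each of blebbistatin replicates 1 and 2 but at most 1.5 CPM in replicates 3 and 4.

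Of 34 cell cycle genes 2 were higher and 3 lower at an unadjusted p under 0.05, with Ccnd3, cyclin D3, at 38.9 to 59.7 CPM with blebbistatin and 21.3 to 31.2 CPM with dextran (log2 difference 0.75 ± 0.21). Ccnb1, cyclin B1, had 254 to 267 CPM with blebbistatin and 294 to 396 CPM with dextran, and control lay with blebbistatin at 226 to 277 CPM (−0.36 ± 0.10). The list gave 2 and 2 members without blebbistatin replicate 1 and 2 and 6 without replicates 1 and 2. Among 45 cytosolic ribosomal protein genes 1 was higher and 0 lower (5 and 0 without replicate 1; 1 and 0 without replicates 1 and 2). It was Rpl22l1, a paralog of Rpl22, at 230, 237, 239 and 223 CPM with blebbistatin and 144, 182, 155 and 171 CPM with dextran (0.51 ± 0.12). Of 20 genes of the nuclear lamina and mechanosensing channels 3 were higher, among them the stretch-gated channels Piezo1 (1.46 ± 0.64) and Piezo2 (1.76 ± 0.75), and 1 lower, Lbr (−0.36 ± 0.15). Both Piezo genes were highest in blebbistatin replicate 1, at 26.7 and 28.8 CPM. Without that library, and also without replicates 1 and 2, this list had 0 members higher and 0 lower, and the log2 differences without replicate 1 were 0.80 ± 0.54 for Piezo1 and 0.92 ± 0.63 for Piezo2.

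Lists for osmotic stress, heat shock, the unfolded protein response and hypoxia gave few members. The osmotic list had 1 lower member, the taurine transporter Slc6a6 (log2 difference −0.34 ± 0.10). Slc6a6 had 328 to 392 CPM with blebbistatin and 396 to 506 CPM with dextran. The 1 higher member of that list, Smtn (0.67 ± 0.27), encodes an actin-binding protein of smooth muscle and is not an osmotic stress gene. Without blebbistatin replicate 1, where Smtn was highest, its log2 difference was 0.41 ± 0.22. Of 21 heat shock genes 2 were higher, Cryab above and the chaperone Dnajb4 (0.46 ± 0.17). Of 27 unfolded protein genes 2 were lower, the factor Xbp1 (−0.44 ± 0.11) and its target Dnajb9 (−0.42 ± 0.15). Hypoxia and glycolysis genes had 1 higher, the hexokinase Hk2 (0.99 ± 0.41), and 1 lower, the mitophagy receptor Bnip3l (−0.37 ± 0.11), and their median was −0.13, against −0.61 for blebbistatin and −0.36 for dextran when each was set against control. Cholesterol synthesis, apoptosis and ovulatory genes had 0 members on either side. Without blebbistatin replicate 1 the higher and lower counts were 0 and 2 for osmotic stress, 4 and 0 for heat shock, 1 and 1 for the unfolded protein response, 0 and 2 for hypoxia, 0 and 1 for apoptosis and 1 and 0 for ovulatory genes. Without replicates 1 and 2 they were 0 and 1, 2 and 0, 0 and 3, 0 and 2, 0 and 1, and 1 and 2 for the same lists, and cholesterol synthesis had 0 in both settings.

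The same contrast was set against that of oocytes from follicles of the same treatments. No label says whether oocyte and granulosa libraries of the same number shared follicles, and the fit did not pair them. The difference between cell types in the blebbistatin minus dextran contrast passed for 6 of 20601 genes (0.0291%), all more negative in granulosa cells, and for 0 more positive (edgeR quasi-likelihood test, Benjamini-Hochberg adjustment). Uchl1 averaged 22.2 ± 5.74 CPM with blebbistatin and 57.9 ± 12.1 CPM with dextran in granulosa cells, and 1285 ± 95.4 and 1132 ± 15.9 CPM in oocytes (SD, n = 4 each; CPM scaled over all 24 libraries). Its difference between the cell types was −1.57 on the log2 scale (edgeR adjusted p = 0.00456). Ocln was at 0 in all blebbistatin granulosa libraries and at 2.10 to 10.8 CPM with dextran, while oocytes had 19.7 to 23.4 CPM with blebbistatin and 13.7 to 29.2 CPM with dextran (edgeR adjusted p = 0.00298). The protease gene Htra4, with at most 0.0530 CPM with blebbistatin and 0.638 to 1.87 CPM with dextran in granulosa cells, had 51.0 to 59.9 and 47.4 to 65.2 CPM in oocytes (edgeR adjusted p = 0.00263). The other 3 were Stk36, Ablim3 and 1700016H13Rik, each below 3 CPM in granulosa cells. With blebbistatin they had at most 0.212, 0 and 0.0530 CPM there. In oocytes of the 2 treatments they had 138 to 293, 13.4 to 27.5 and 1.27 to 8.07 CPM. With 1 library left out at a time the number ran from 3, without oocyte dextran replicate 4, to 75, without granulosa blebbistatin replicate 2. It was also over 1.5 times higher without granulosa blebbistatin replicate 3 (16) or 4 (12) and without dextran replicate 1 (13) or 4 (11). The genes of smallest p in the positive direction, C1qb, Ccnd1 and Arhgef25, did not pass (edgeR adjusted p = 0.177 for each), and neither did Rhoa, whose log2 difference was −0.47 in granulosa cells and −0.22 in oocytes.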

How the data were processed

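The authors deposited estimated counts per gene and library made with salmon, per the labels (column names) of each library; the submitters' processing notes name the mouse build GRCm39, while annotation, tool versions and strandedness were not given in the sources used here. Genes sharing reads with near-identical or antisense neighbours may be split between them. Counts were rounded, genes filtered with filterByExpr (15370 of 78298 kept), scaled by TMM and tested with edgeR 4.0.16 (quasi-likelihood, robust) in R 4.3.3 over the 12 granulosa cell libraries, at a Benjamini-Hochberg adjusted p of 0.05. An unadjusted p under 0.05 only describes. The comparison with oocytes used all 24 libraries and 20601 genes. CPM are TMM-scaled; standard errors derive from the log2 difference and its F value. Alternatives were DESeq2 1.42.0, limma 3.58.1 (voom), other scalings and filters, a replicate block and left-out libraries. edgeR, DESeq2 and voom were tested on simulated data. No pair of libraries of a group was a duplicate (smallest chi-square per gene 25.5).

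The text names the 12 genes of smallest p in each direction with at least 5 CPM on average, up to 2 higher and 2 lower members per list described, a set of anchor genes, and for the comparison with oocytes 3 per direction; others are marked as picked after their values were seen. Of the 12 lower genes 1 is not reported here. The members, the lists and these rules were chosen with earlier results of these data known. Floors are 3 counts over a group.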

Additional observations from a re-analysis of the deposited data

Results flagged for a closer look

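In 14 of 226 sets of 4 libraries examined, 1 library stood apart from the other 3 by Dixon's criterion at its 95% critical value, and chance gives about 1 in 20. Blebbistatin replicate 1 was that library 6 times. It had 47.5 CPM of Tead1, a partner of YAP, against 15.1 to 19.2 CPM in the other blebbistatin libraries, and 212 CPM of Lox against 1.58 to 31.1 CPM. Its Smtn level was 62.3 CPM against 32.4 to 35.8 CPM, its Slc6a6 level 392 CPM against 328 to 338 CPM, its Fos level 177 CPM against 65.7 to 78.3 CPM, and its summed oocyte markers 38.0 CPM against 3.12 to 6.27 CPM. Blebbistatin replicate 4 had 3.00 CPM of Cyp19a1, the others at most 0.322 CPM.

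Dextran replicate 1 stood apart 4 times. It had 380 CPM of Amh against 43.0 to 58.2 CPM in the other dextran libraries, 6.90 CPM of Cyp19a1 against at most 0.545 CPM, 658 CPM of Xbp1 against 512 to 527 CPM, and 3.12 CPM of Actg2 against at most 0.0991 CPM. Dextran replicate 4 had 13.3 CPM of Col4a4 against 5.46 to 6.52 CPM, and dextran replicate 2 had 0.545 CPM of Myh11, which was at 0 in the others. Dextran replicate 3 was low in Hk2, at 20.6 CPM against 33.7 to 35.5 CPM.

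The blebbistatin minus dextran difference itself differed between granulosa cells and oocytes for 6 genes. The log2 difference in granulosa cells minus that in oocytes was −5.79 for Htra4, −9.29 for Ocln, −1.57 for Uchl1, −4.17 for Stk36, −7.50 for Ablim3 and −5.76 for 1700016H13Rik. Apart from Uchl1, these genes averaged under 5 CPM in granulosa cells of either treatment.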

How the results depend on the processing

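The number of genes past the adjusted threshold, 0 in each direction, was the same with other size factors, a 5 CPM minimum, limma voom, no robust estimation, only the 8 libraries, and the replicate block. DESeq2 gave 104 higher and 110 lower, no filter 0 and 1 (Uchl1), and leaving out blebbistatin replicates 1 and 2 (chosen after seeing the data) 4 and 8. With 1 library left out the range was 0 to 1 higher and 0 to 2 lower. At an unadjusted p under 0.05, no filter gave 1397 higher and 1861 lower, DESeq2 957 higher, and the lower genes numbered 420 with the 5 CPM minimum, 1526 with voom, 398 with only the 8 libraries and 1515 without blebbistatin replicates 1 and 2; single omissions gave 474 to 926 higher and 554 to 1185 lower. Genes differing between cell types numbered 196 with DESeq2, 13 with voom and 45 with the replicate block, and 3 to 75 with single omissions. Signs turned for Actb (0.0043 with DESeq2 size factors, 0.0043 with DESeq2 and 0.0069 with the 5 CPM minimum; −0.096 to 0.062 with single omissions), Srf (−1.40 with voom, −0.092 with the block; −0.19 to 0.56), Ccn2 (−0.25 with the block, −0.30 without blebbistatin replicates 1 and 2; −0.64 to 0.95), Actg1 (0.021) and Ctsb (−0.32) without those 2 replicates, and for Amh (−1.25 to 0.63), Cyp19a1 (−4.02 to 2.14) and Ccn1 (−0.77 to 0.22) with single omissions. The cause was not tested. Deviations of same-numbered libraries correlated little (−0.0026, 0.0542, −0.0406 and 0.0751). The best partner among dextran libraries had the same number for blebbistatin replicates 2 and 4, and another number for replicates 1 and 3. Such correlations cannot decide whether same-numbered libraries shared a culture. The block gave 0 genes past the adjusted threshold and 527 higher and 868 lower unadjusted. Depth limits genes of a few counts, where a blebbistatin library at 0 sets the fitted value.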

Other observations

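Notch and Hedgehog genes, which in ovary link granulosa cells to oocyte and theca, had 1 of 17 tested members higher with blebbistatin than dextran and 3 lower at an unadjusted p under 0.05, with a median log2 difference of 0.14 (0 and 2 without blebbistatin replicate 1; 2 and 2 without replicates 1 and 2). The higher one was Ptch1, the Hedgehog receptor and target, which is also among the stromal markers, and the lower ones were the Notch ligand Jag2, the Notch partner Rbpj and the target Hey2. Endothelial markers summed to 17.9 to 52.9 CPM with blebbistatin and 7.31 to 22.9 CPM with dextran, and 0 of 6 tested members passed that threshold (1 higher without blebbistatin replicate 1, and 1 higher and 1 lower without replicates 1 and 2). Of 2 tested oocyte markers and 3 of the ovarian surface, 0 passed it either.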
